A study of Mus musculus with 2 samples.

Results

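The 10 genes tied to cell cycle arrest and cellular senescence followed here in total RNA-seq of aged mouse heart were the CDK inhibitor genes Cdkn1a, Cdkn1b, Cdkn2a, Cdkn2b and Cdkn2c, the tumour suppressor gene Trp53 and its regulator Mdm2, the retinoblastoma gene Rb1, the lamin gene Lmnb1 and the lysosomal enzyme gene Glb1. They were chosen by exact gene symbol, and all 10 were found once each among the 55536 annotated genes of the deposited gene table. The tissue was the heart of male B6CASTF1/J mice, an F1 cross of laboratory and wild-derived parents, aged 18 to 20 months. Both libraries, replicates 1 and 2, came from 300 ng of RNA by a stranded method that reduces ribosomal RNA, with ERCC spike-ins added. They form 1 group, so no young, treated or other heart was compared, and nothing here measures a change with age. The labels give the libraries separate sample identifiers but the same donor identifier, so a p-value measures only the difference between these libraries, which may be technical.

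As background, a dividing cell passes into DNA synthesis when cyclin-dependent kinases (CDKs) phosphorylate the retinoblastoma protein, which then releases E2F transcription factors. The Cip/Kip inhibitors, such as p21 from Cdkn1a and p27 from Cdkn1b, bind whole cyclin-CDK complexes, whereas the INK4 inhibitors, such as p16 from Cdkn2a, p15 from Cdkn2b and p18 from Cdkn2c, bind the kinases of cyclin D. The p53 protein from Trp53 switches on Cdkn1a and also Mdm2, whose product marks p53 for destruction, while the second protein of Cdkn2a, Arf, blocks Mdm2. Senescent cells, which have left the cell cycle for good, are commonly recognised by raised p16 or p21, loss of lamin B1 from Lmnb1 and high lysosomal beta-galactosidase activity, which Glb1 encodes. Most cardiomyocytes of the adult heart have already stopped dividing.

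The libraries held 38858481 and 37281459 expected counts on annotated genes, in replicates 1 and 2. Cardiomyocyte RNA dominated both, with Myl2, a ventricular myosin light chain gene, at 9599 and 8366 TPM (a level scaled for gene length and library size), so the heart label held. Of the 10 marker lists for cell types, white adipocyte markers were farthest apart, with 6 of 6 tested genes lower in replicate 2. Levels below are the deposited TPM of replicate 1 and then replicate 2, and coordinates are mm10 with the GENCODE M21 annotation.

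Cdkn1a stands on chr17:29090976-29100727, plus strand, and the annotation gives it an upstream and a downstream start 2790 bases apart. Nearly all of its counts were assigned to forms of the downstream start. The RefSeq (GRCm38.p6) windows of 250 bases before each start are printed because the gene held the highest mean level and the widest replicate difference of the 10. In the upstream window, capitals mark matches to the p53 half-site consensus. In the downstream window, capitals mark GGGCGG, the core of an Sp1 site, and TATAA, the core of a TATA box.
Cdkn1a upstream start: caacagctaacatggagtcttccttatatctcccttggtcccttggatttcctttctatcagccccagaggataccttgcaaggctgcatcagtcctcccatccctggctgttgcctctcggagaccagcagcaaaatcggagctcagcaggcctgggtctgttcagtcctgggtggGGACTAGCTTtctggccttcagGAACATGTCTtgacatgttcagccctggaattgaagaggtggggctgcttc
Cdkn1a downstream start: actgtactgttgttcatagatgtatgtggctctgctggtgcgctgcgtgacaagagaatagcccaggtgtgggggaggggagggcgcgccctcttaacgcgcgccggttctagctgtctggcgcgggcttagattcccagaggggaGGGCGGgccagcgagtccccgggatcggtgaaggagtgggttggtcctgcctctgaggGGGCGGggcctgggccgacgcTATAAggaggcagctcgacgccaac
The upstream window lies at chr17:29090729-29090978 and the downstream window at chr17:29093519-29093768, both on the plus strand. The half-site matches lie 73 to 64 and 51 to 42 bases before the upstream start. Among 32851 RefSeq promoter windows of this length, searched on both strands, 7.13% held at least 1 half-site match and 0.259% held at least 2. The downstream window held no half-site match, GGGCGG at 104 to 99 and 46 to 41 bases before its start, and TATAA at 25 to 21 bases. GGGCGG occurred in 32.7% of all windows and TATAA in 22.8%. A match describes the letters only and does not show that a factor bound there. Sequence outside the windows was not searched, and which start a half-site match may act on was not tested.

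Cdkn2a, on chr4:89274471-89294653, minus strand, is shown for another reason: its 2 starts, 12461 bases apart, feed different first exons into the same exon 2 in different reading frames. Each line below gives the last 20 bases of a first exon in lower case and the first 20 bases of the shared exon 2 in capitals.
Cdkn2a-201: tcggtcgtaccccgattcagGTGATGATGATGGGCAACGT
Cdkn2a-202: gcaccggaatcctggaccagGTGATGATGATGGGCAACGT
In Cdkn2a-201, the p16Ink4a form, the first base of exon 2 is position 1 of a codon, and the coding sequence has 504 bases. In Cdkn2a-202, the p19Arf form, the same base is position 2 of a codon, and the coding sequence has 507 bases. A read that lies wholly in the shared exon 2 (chr4:89276645-89276985, 341 bases) cannot say which protein its RNA encoded.

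The levels of the 10 genes spanned from 29.2 TPM down to 0.105 TPM in the mean of the libraries, with Cdkn1a at the top and Cdkn2a at the bottom. The protein-coding genes of the nuclear genome that reached 1 TPM had a median of 8.33 TPM in these libraries, and Cdkn1a, Mdm2 and Cdkn1b lay above it. Rb1, Trp53, Glb1, Cdkn2c and Lmnb1 lay between it and 1 TPM. Cdkn2b and Cdkn2a lay below 1 TPM.

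Among the Cip/Kip genes, Cdkn1a measured 40.8 TPM in replicate 1 and 17.7 TPM in replicate 2, a mean of 29.2 ± 16.3 (SD, n = 2). Replicate 1 was thus far above replicate 2, though either library alone placed the gene above 86.5% or more of nuclear protein-coding genes. Cdkn1b, on chr6:134920401-134925513, plus strand, measured 13.6 and 12.2 TPM, a mean of 12.9 ± 1.02 (SD, n = 2), with little between the libraries. The relative Cdkn1c, which encodes p57 and lies outside the 10, stood at 9.24 and 8.53 TPM.

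Among the INK4 genes, Cdkn2c, on chr4:109660876-109667189, minus strand, was the highest of the 3 at 4.32 and 4.13 TPM. Cdkn2d, the INK4 gene outside the 10, which encodes p19Ink4d, stood at 5.78 and 5.20 TPM, which was 1.34 and 1.26 times Cdkn2c, or 2.12 and 1.66 times in the second table. Cdkn2b, on chr4:89306299-89311039, minus strand, rested on 13 and 16 counts, or 0.33 and 0.40 TPM. The 95% Poisson intervals of those counts, 6.92 to 22.2 and 9.15 to 26.0, overlapped widely. Cdkn2a rested on 3 and 2 counts, or 0.12 and 0.09 TPM, with Poisson intervals of 0.619 to 8.77 and 0.242 to 7.23 counts. These intervals cover counting error only, and at this depth no difference in Cdkn2a between the libraries was detectable. Because both libraries stood at or under 3 counts, no fold is given for Cdkn2a. In bulk tissue, a low level in many cells and a higher level in few cells cannot be told apart.

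Summed over 7 CDK inhibitor genes, Cdkn1a made up 54.9% of the TPM in replicate 1 and 36.7% in replicate 2. Cdkn1b was second with 18.4% and 25.3%, followed by Cdkn1c with 12.5% and 17.7%. The 3 Cip/Kip genes together held 85.8% and 79.6% of the inhibitor TPM. Cdkn2a held 0.162% and 0.187% of it, and Cdkn2b 0.445% and 0.830%. The second deposited transcript table, a separate quantification of the same libraries, gave Cip/Kip shares of 82.2% and 78.4%. The inhibitor RNA of these libraries was thus mainly Cip/Kip by either table.

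Trp53, on chr11:69580359-69591873, plus strand, measured 6.23 and 5.56 TPM, a mean of 5.89 ± 0.474 (SD, n = 2). Mdm2, on chr10:117688875-117710758, minus strand, measured 21.6 and 19.9 TPM, a mean of 20.8 ± 1.17 (SD, n = 2). The ratio of Mdm2 to Trp53 was 3.47 in replicate 1 and 3.59 in replicate 2, and 5.18 and 4.82 in the second table. Both libraries and both tables thus placed the ligase gene above the gene of its target. Over protein-coding transcripts alone this order held, at 16.5 and 14.3 TPM for Mdm2 against 5.35 and 4.86 for Trp53. The second table gave 14.4 and 14.0 against 6.28 and 5.78 TPM, a narrower gap than over the whole genes. By contrast, the ratio of Cdkn1a to Mdm2, both textbook p53 targets, was 1.89 in replicate 1 and 0.887 in replicate 2, and 1.12 and 0.613 in the second table. In both tables the whole-gene level of Cdkn1a exceeded that of Mdm2 in replicate 1 and was below it in replicate 2. Over protein-coding transcripts alone, Cdkn1a stayed above Mdm2 in replicate 2, at 17.6 against 14.3 TPM. The second table gave 17.8 against 14.0 TPM there.

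Rb1, on chr14:73183673-73325822, minus strand, measured 7.21 and 7.62 TPM, a mean of 7.41 ± 0.290 (SD, n = 2). Its counts ran the other way, 938 and 846, because the short transcript Rb1-203 of 324 bases took 9.12 counts, worth 1.32 TPM, in replicate 2 and none in replicate 1. The second table gave Rb1 8.02 and 6.63 TPM, higher in replicate 1. Among the pocket proteins, Rb1 stood 11.1 and 11.7 times above Rbl1 (10.9 and 8.89 times in the second table), which is known from dividing cells. Rbl2, known from resting cells, stood 1.71 and 1.78 times above Rb1, and 1.94 and 2.66 times in the second table. Part of Rb1 is overlapped on the opposite strand by Rcbtb2, at 8.84 and 8.32 TPM. The libraries were stranded, per the labels, but how strand was used in counting is not given in the sources used here.

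Glb1, on chr9:114401076-114474898, plus strand, measured 5.61 and 4.72 TPM, a mean of 5.17 ± 0.629 (SD, n = 2). It stood 7.10 and 6.84 times above its relative Glb1l, and 5.26 and 4.33 times in the second table. Tmppe, a gene on the same strand that begins inside Glb1, was listed at 1.34 and 1.27 TPM, and reads shared by both genes could be split between them. Lmnb1 measured 1.62 and 1.45 TPM, a mean of 1.53 ± 0.120 (SD, n = 2), the lowest of the 8 genes above 1 TPM. The A-type lamin gene Lmna stood 32.0 and 28.4 times above Lmnb1 (44.0 and 43.9 times in the second table), and the other B-type gene, Lmnb2, 1.45 and 1.30 times above it. These are RNA levels, and neither beta-galactosidase activity nor lamin protein was measured.

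**Figure D1:**
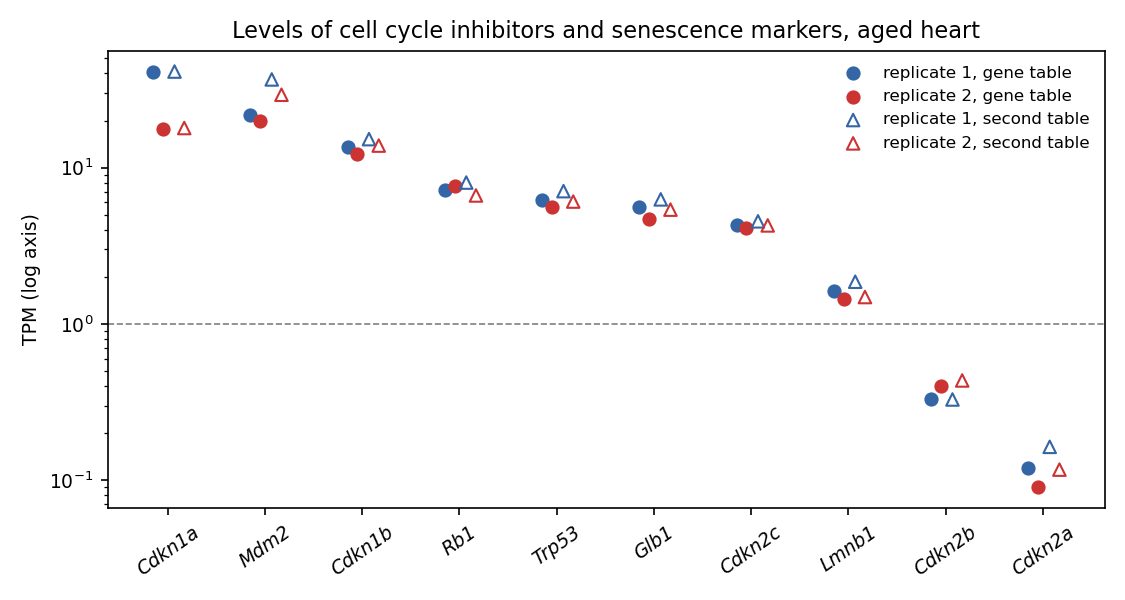
Deposited TPM (log axis) of the 10 genes in each library, ordered by mean, in the first table and the second table. Cdkn1a is the gene whose libraries lie widest apart, and Cdkn2b and Cdkn2a lie below 1 TPM in both tables.

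In descending order of mean TPM the genes ran Cdkn1a, Mdm2, Cdkn1b, Rb1, Trp53, Glb1, Cdkn2c, Lmnb1, Cdkn2b and Cdkn2a. The ranges of neighbours overlapped for Cdkn1a and Mdm2 and for Trp53 and Glb1, so those neighbours were not ordered beyond the spread of the libraries. The other neighbouring pairs did not overlap in the first table. In the second table Mdm2, at 36.6 and 29.2 TPM, moved above Cdkn1a, at 41.2 and 17.9 TPM, and the ranges of Rb1 and Trp53 also overlapped. The 8 other genes kept their order there. The largest step between neighbours was 4.21-fold, from Lmnb1 to Cdkn2b. No fold is given for the step from Cdkn2b to Cdkn2a, which rests on 3 and 2 counts of Cdkn2a. The Poisson intervals of that pair's counts overlapped in replicate 1 but not in replicate 2, but counts are not scaled for gene length. The deposited bounds of TPM, read as scores, overlapped for that pair in both libraries.

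Against this order, the replicate ratios were close to zero in 7 of the 8 genes that could be tested. The counts of each gene were set against each other in a two-sided exact binomial test after TMM scaling of the library sizes, with Benjamini-Hochberg adjustment over the 12189 genes whose mean reached 1 TPM. At an adjusted p below 0.05 the test called 26.3% of these genes, 10.6% higher and 15.8% lower in replicate 2. Of the 8 genes, 1 was called, Cdkn1a. A difference of 2-fold or more, 1.67% of tested genes in either direction and 1.13% lower in replicate 2, was likewise reached by Cdkn1a alone. The median log2 ratio, replicate 2 over replicate 1, was -0.00013 over the 8 genes and -0.02 over all tested genes.

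Cdkn1a counts fell from 2267 in replicate 1 to 963 in replicate 2, a log2 ratio of -1.10 with a 95% interval of -1.21 to -0.99. Replicate 1 was thus 2.14-fold above replicate 2, with an adjusted p of 3.65e-92 by the exact binomial test (Benjamini-Hochberg). The test counts reads of 1 library against 1 other, so this p carries no spread between animals. Of all tested genes, 1.38% had a ratio larger in size and 0.935% had a lower ratio. The log2 ratio was -1.17 with total-count scaling, -1.002 with spike-in scaling and -1.12 in the second table, so no scaling or table removed the difference.

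The other 7 intervals all included zero. Cdkn1b had 1105 and 1013 counts and a log2 ratio of 0.01 (95% interval -0.11 to 0.14). Mdm2 had 1624 and 1495 counts and a log2 ratio of 0.02 (-0.08 to 0.12). A 2-fold change in either gene lies far outside these intervals, whereas the shallower genes were bounded less tightly. Trp53 had 301 and 279 counts and a log2 ratio of 0.03 (-0.21 to 0.27), Rb1 a log2 ratio of -0.01 (-0.15 to 0.12) and Glb1, with 398 and 333 counts, -0.12 (-0.33 to 0.09). Cdkn2c had 220 and 209 counts and a log2 ratio of 0.06 (-0.22 to 0.34). Lmnb1 had 137 and 122 counts and a log2 ratio of -0.03 (-0.39 to 0.33). Among the 7, the smallest adjusted p by the exact binomial test was 0.483, for Glb1. Cdkn2b was below the level needed for the test, and its interval of -0.71 to 1.61 allowed changes past 2-fold in the higher direction.

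**Figure D2:**
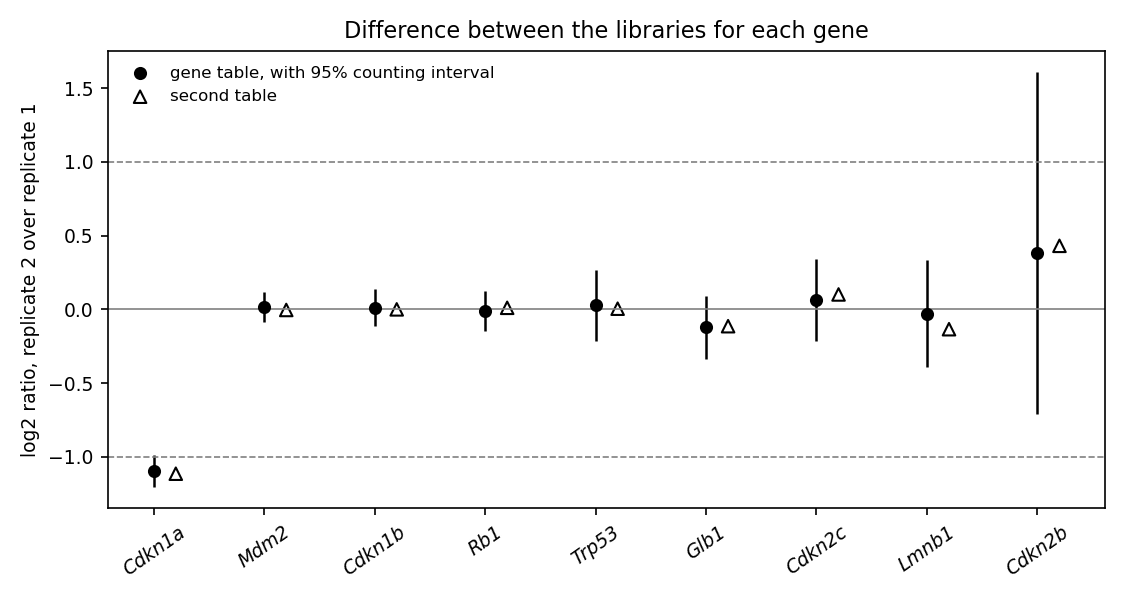
Log2 ratio of replicate 2 over replicate 1 for 9 of the 10 genes, with 95% intervals from the counts; Cdkn2a, at or under 3 counts in both libraries, is left out. The Cdkn1a interval runs from -1.21 to -0.99 while the other intervals include zero.

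Cell type markers differed between the same libraries, and their values are given beside the Cdkn1a difference. White adipocyte markers summed to 57.4 TPM in replicate 1 and 12.4 TPM in replicate 2, with 6 of 6 tested genes called lower and all 6 past 2-fold. Macrophage markers summed to 132.8 and 97.2 TPM, with 5 of 7 called lower. Atrial muscle markers summed to 1377 and 819.9 TPM, with 5 of 6 called lower and 1 past 2-fold, at 10.9-fold. Spike-in scaling called 5 lower and the other 1 higher. Red cell markers summed to 10880 and 7045 TPM, with 5 of 5 tested genes called lower. With TMM scaling all 4 lists had only lower calls, where 15.8% of all tested genes were called lower and 10.6% higher. Lower sums in replicate 2 were not particular to these lists, as cardiomyocyte, fibroblast and mural sums were lower too. Cardiomyocyte markers (5 of 7 called lower and 2 higher), fibroblast markers (3 lower and 3 higher) and endothelial markers (1 lower and 3 higher) had calls both ways, and mural cell markers had 1 call, higher. Spike-in scaling gave endothelial markers 5 calls and mural markers 4, all higher, and total-count scaling gave mural markers 3 lower and 1 higher. Cardiomyocyte marker sums were 35210 and 29530 TPM, fibroblast sums 256.2 and 224.5, endothelial sums 196.4 and 198.9 and mural sums 219.7 and 201.8. T cell markers summed to 1.62 and 2.51 TPM and neutrophil markers to 0.40 and 0.64 TPM, with Camp, Elane, Mpo and Ly6g at 0 in both. The part of any cell type in the Cdkn1a difference was not tested.

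Transcript shares give the annotated forms to which the Cdkn1a level was assigned. Forms that begin at the downstream start held 98.1% of Cdkn1a TPM in replicate 1 and 95.5% in replicate 2 in the first table, and 96.1% and 93.3% in the second. Their counts fell from 2242 to 940.2 in the first table and from 2335 to 942.2 in the second. Forms of the upstream start, the one with the half-site matches printed above, were assigned 0 and 12.9 counts in the first table. They were assigned 0.19 and 3 counts in the second. The replicate difference in Cdkn1a counts was thus assigned to forms of the downstream start in both tables. The upstream coding form, Cdkn1a-202, is annotated at 922 bases against 1913 for Cdkn1a-201, so some reads could be assigned only to downstream forms. Reads over the first exons were not counted apart, and which start the RNA used was not tested.

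Which downstream form was counted depended on the table. Cdkn1a-201 (1913 bases) had 96.7% and 93.2% of the TPM in the first table but 12.5% and 7.11% in the second. Cdkn1a-205 (2080 bases) had 1.42% and 2.26% in the first and 83.6% and 86.2% in the second. The starts of these forms lie 12 bases apart, the first exon of Cdkn1a-205 runs 180 bases farther at its 3′ end, and both carry the same 477 coding bases. The choice between them was not settled by these tables, and the protein they encode is the same.

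Trp53 showed the same kind of swap among near-identical forms. Trp53-201 held 67.8% and 70.8% of the TPM in the first table and 22.1% and 21.1% in the second, while Trp53-203, 1 base shorter in all, held 2.88% and 0.180% and then 49.8% and 55.3%. Trp53-202 and Trp53-206, whose last exon begins 96 bases earlier, swapped in the same way. Summed by last exon, the forms with the shorter last exon held 70.7% and 71.0% in the first table and 72.0% and 76.4% in the second. Those with the longer one held 15.1% and 16.6%, and 16.9% and 18.9%. In this grouping, made after the shares were seen, the swap between the tables was gone.

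Mdm2 was the gene of the 10 whose mean level differed most between the tables, 20.8 TPM in the first and 32.9 TPM in the second. The coding form Mdm2-201 (3099 bases) was steady in share between libraries, at 74.0% and 70.5% in the first table, but had 38.1% and 47.1% in the second. Mdm2-204, a retained-intron transcript of 919 bases, had 5.93% and 4.46% in the first table and 29.2% and 31.7% in the second. Mdm2-206, a processed transcript of 683 bases, had 0% in both libraries of the first table and 17.8% and 4.15% in the second. Mdm2-207 (499 bases) had 14.3% and 16.8%, and 12.8% and 14.3%. The 7 forms not annotated as protein-coding together held 23.4% and 28.3% of Mdm2 TPM in the first table and 60.6% and 52.1% in the second. In counts they were fewer, 91.9 and 179.8 against 1532 and 1315 for coding forms in the first table. Of the 179.8 counts, 103.0 belonged to Mdm2-209, a form of 2769 bases annotated for nonsense-mediated decay, which had no counts in replicate 1.

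The remaining genes were simpler. Cdkn1b-201 held 84.4% and 80.6% of Cdkn1b TPM in the first table and 82.6% and 79.9% in the second, the rest falling to Cdkn1b-202, which has the same 591 coding bases. The TPM of Cdkn2c was divided almost evenly between Cdkn2c-201, with 52.8% and 52.7%, and Cdkn2c-202, with 47.2% and 47.3%. Both encode the same 504 coding bases from starts 1817 bases apart. In the second table Cdkn2c-201 had 49.3% and 42.1%. Of the counts in the first table, which are not scaled for length, Cdkn2c-201 had 32.2% and 32.1%. Rb1-201, Lmnb1-201 and Glb1-201 each held over 78% in both libraries of both tables. Of the 3 and 2 counts of Cdkn2a, the first table gave those of replicate 1 to the p19Arf form and those of replicate 2 to the p16Ink4a form, whereas the second gave all to the p16Ink4a form. Too few reads were present to say which product was expressed.

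**Figure D3:**
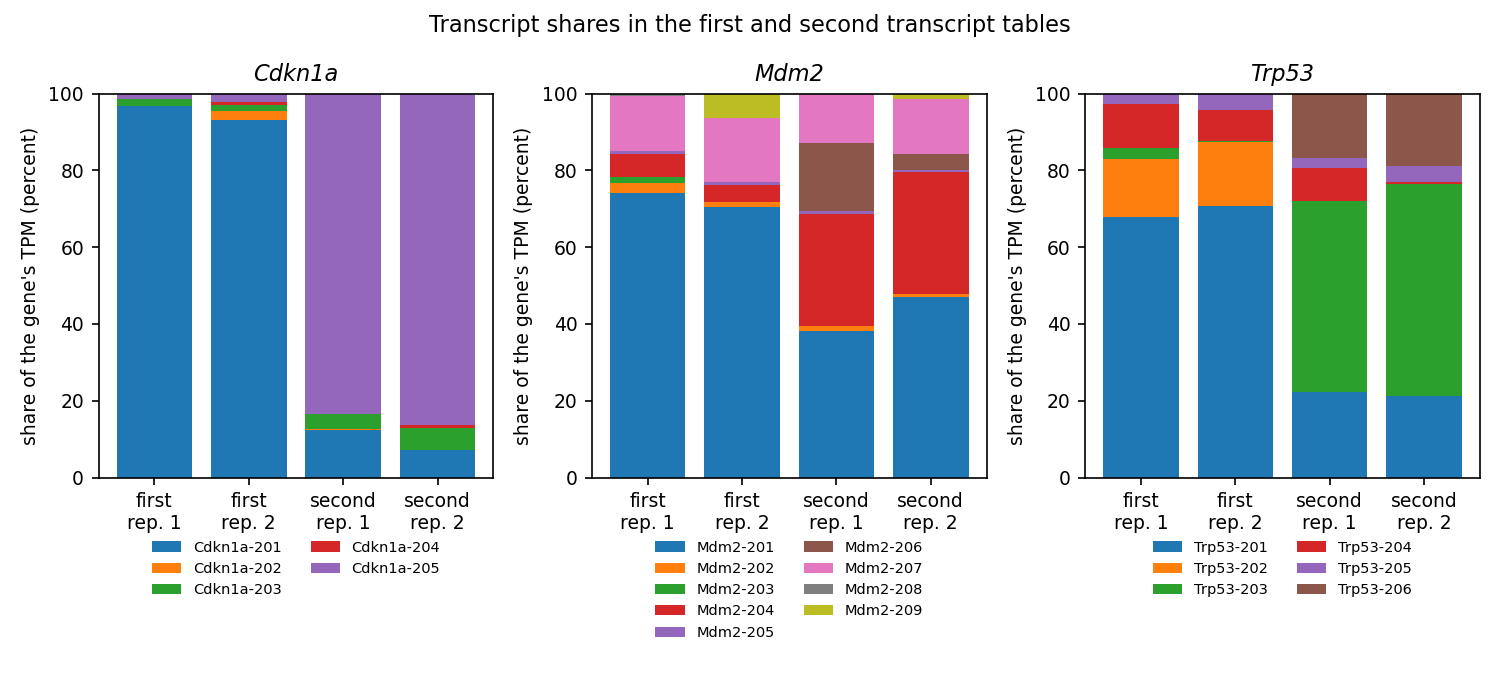
Share of the TPM of Cdkn1a, Mdm2 and Trp53 (percent, stacked to 100) held by each annotated transcript, for both libraries in the first and the second table. The leading transcript of Cdkn1a and of Trp53 changes from table to table, and Mdm2-206 holds 17.8% of Mdm2 in replicate 1 and 4.15% in replicate 2 of the second table.

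The genes around these 10 were taken from 11 lists and are given in the order of the pathway. Among cyclins and CDKs, the targets of the inhibitors, listed together with the Cdc25 genes, 9 of 15 could be tested. Of these 9, 4 were called, all lower in replicate 2 (44.4%, against 26.3% of all tested genes). The D cyclin genes Ccnd2, at 64.8 and 52.0 TPM, and Ccnd1, at 25.3 and 20.7 TPM, had log2 ratios of -0.23 and -0.14. Their kinase gene Cdk4, at 32.9 and 25.9 TPM, had a log2 ratio of -0.26, and Cdk6, at 3.44 and 2.15 TPM, one of -0.53. Cdk2 stood at 3.29 and 3.06 TPM. The mitotic genes were near the floor, with Ccnb1 at 0.45 and 0.20 TPM and Cdc25c at 0.06 and 0.05 TPM. The D cyclin and Cdk4 genes thus stood well above these mitotic genes in both libraries. Total-count scaling called 6 of the 9 lower and spike-in scaling 2, and neither called any higher.

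Downstream of the kinases, 10 of 18 genes of the pocket protein, E2F and DREAM list were tested and 2 were called, both higher (20.0%, against 26.3% of all tested genes). Total-count scaling called 1 higher and 1 lower, and the second table gave 2 higher and 1 lower. The 2 called with TMM scaling were Rbl2, at 12.3 and 13.5 TPM (log2 ratio 0.17), and Tfdp2, an E2F partner, at 30.3 and 33.9 TPM (0.20). The repressive E2f6 stood at 34.1 and 31.5 TPM, and the activating E2f1 at 0.23 and 0.30 TPM. In the proliferation list 9 of 18 were tested and 1, the replication helicase gene Mcm6, was called lower, at 2.43 and 1.97 TPM (log2 ratio -0.48), against 2 called lower with total-count scaling. Pcna, the sliding clamp of replication, stood at 16.9 and 13.3 TPM.

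Among regulators of p53, 13 of 17 were tested and 4 were called, all higher (30.8%, near the 26.3% of all tested genes), with a median log2 ratio of 0.08. Total-count scaling called 1, DESeq2 size factors 2, counts of the second table also 2, and spike-in scaling 7, none of them lower. Ep300 and Crebbp, which encode acetyltransferases that act on p53, had log2 ratios of 0.18 and 0.09. Trp53bp1, a DNA damage response gene, had one of 0.18 and the kinase gene Hipk2 one of 0.07. Cop1, another ubiquitin ligase for p53, stood at 49.2 and 49.3 TPM. Of the relatives of Trp53, Trp63 stood at 0.13 and 0.37 TPM and Trp73 had no counts in either library. None of the 4 calls reached 2-fold.

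Of 32 p53 target genes other than Cdkn1a and Mdm2, 26 were tested and 10 were called, 7 lower and 3 higher. That was 38.5% of the 26, against 26.3% of all tested genes. None of the 26 reached 2-fold, and their median log2 ratio was -0.06. The nearest to Cdkn1a was Sesn1, a stress-response gene, at 54.5 and 30.1 TPM (log2 ratio -0.68, adjusted p 1.64e-80 by the exact binomial test). Phlda3 had a log2 ratio of -0.48 at 4.73 and 3.10 TPM. In the other direction, the kinase gene Plk2 rose from 5.67 to 7.86 TPM (0.58), and Rrm2b, a nucleotide reductase subunit, had one of 0.16. The most abundant were Ak1, at 278.3 and 249.2 TPM (-0.05), and Ccng1, at 219.9 and 208.0 TPM (0.05). The p53 targets thus did not all move with Cdkn1a. Under spike-in scaling the split of this list turned to 2 lower and 6 higher, with a median of 0.04, and total-count scaling gave 8 lower and 1 higher.

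In the senescence secretory list 9 of 23 genes were tested and 5 were called, 3 higher and 2 lower, none of these 9 past 2-fold. The share called was 55.6%, against 26.3% of all tested genes. Igfbp5, which encodes a binding protein of insulin-like growth factors, had a log2 ratio of 0.35 at 32.5 and 37.9 TPM. Csf1, a macrophage growth factor gene, had one of 0.28 at 10.4 and 11.0 TPM. Igfbp7, at 70.8 and 52.7 TPM (-0.30), and Vegfa, at 96.6 and 81.7 TPM (-0.16), were lower. Of the interleukin genes, Il6 stood at 0.06 and 0 TPM and Il1a had no counts in either library. The median log2 ratio of the tested genes was 0.06, and -0.02 with total-count scaling, which called 2 higher and 2 lower.

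The list of Cdkn2a locus regulators held Polycomb genes, which are known to silence the locus, and Dmtf1, which is not a Polycomb gene. Of its genes, 12 of 12 were tested and 1 was called, Phc2, lower at 18.3 and 12.5 TPM (8.33%, against 26.3% of all tested genes). Total-count scaling called 2 lower, and spike-in scaling 1 lower and 1 higher. Bmi1 stood at 23.9 and 23.2 TPM and Ezh2 at 3.82 and 2.41 TPM. Of the genes that control p27 turnover or Cdkn1b transcription, 7 of 8 were tested and 1, the transcription factor gene Foxo3, was called lower (log2 ratio -0.21), or 14.3% against 26.3% of all tested genes. Total-count scaling called 4 of the 7 lower, the second table gave 2 lower, and spike-in scaling 1 lower and 1 higher. Skp2, the ligase subunit that recognises p27, stood at 0.28 and 0.08 TPM.

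Around Glb1, 20 of 23 lysosomal genes were tested, with 3 called higher and 3 lower and a median log2 ratio of 0.004. The share called, 30.0%, was near the 26.3% of all tested genes. The protease gene Ctsd, at 401.8 and 358.8 TPM (-0.04), and Hexa, a hexosaminidase gene, at 20.0 and 15.8 TPM (-0.21), were among those lower. Gaa, the acid alpha-glucosidase gene, at 36.8 and 38.0 TPM (0.17), was among those higher. With spike-in scaling the split was 0 lower and 8 higher, and with total counts 8 lower and 2 higher, so no direction is given for the lysosome. Around Lmnb1, 9 of 9 lamina and chromatin genes were tested, with 2 called lower and 1 higher (33.3%, against 26.3% of all tested genes). Spike-in scaling gave 1 lower and 3 higher, and total counts 3 lower. Lmna had a log2 ratio of -0.20 at 51.9 and 41.2 TPM, and Hmgb1, a chromatin protein gene, one of 0.15 at 32.2 and 34.3 TPM. Banf1, which encodes a chromatin-bridging protein, was at 48.7 and 39.6 TPM (-0.18). Lamina genes therefore covered a wide range of levels, with Lmnb1 and Lmnb2 at the low end.

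**Figure D4:**
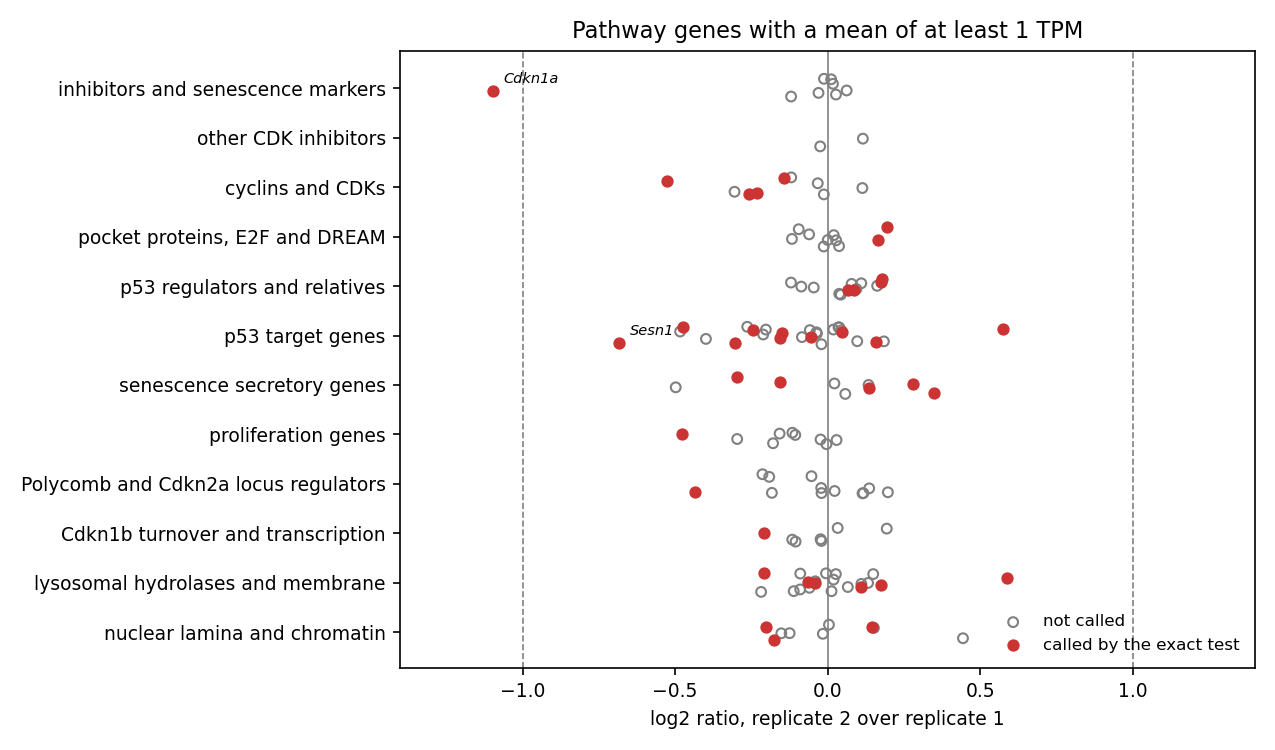
Log2 ratio of replicate 2 over replicate 1 for the tested genes of each pathway list and of the 10 genes, 1 point a gene. Cdkn1a, at -1.10, lies beyond the lower 2-fold line, and of the pathway genes plotted Sesn1, at -0.68, is farthest from zero.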

How the data were processed

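Gene tables held expected counts, TPM and FPKM as deposited, with the bounds of TPM and the SD of each count used only as scores, and the matching transcript tables gave expected counts, TPM and each transcript's percent of its gene, all made from transcriptome alignments (mm10, GENCODE M21) per the deposited file list. Another transcript table per library, called the second table, holds deposited estimated counts and TPM obtained from the reads and an index per that list; it was summed per gene. The quantification tools are not given in the sources used here. The depth was 39053830 and 37447840 expected counts, of which 195347 and 166380 fell on spike-ins, and spike-ins entered neither library sizes nor tests.

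Expected counts were rounded. Log2 ratios used TMM sizes (edgeR 4.0.16, R 4.3.3) and a prior count of 2. With 1 library against 1, the exact conditional binomial test (two-sided, Benjamini-Hochberg at 0.05) compared the libraries only. The biological coefficient of variation, by edgeR with an intercept only, was 11.0%. Intervals are 95%, Clopper-Pearson for ratios and exact Poisson for counts. On simulated Poisson counts for the 12189 genes, 200 of them changed, the test found 94.0% of changes of 1 on the log2 scale. Those counts held counting error only, so this share does not carry over to the real libraries. Alternatives were total counts, DESeq2 1.42.0 size factors, spike-ins, the second table, other filters, prior counts and units. The 10 genes and the lists were chosen with earlier results of these data known. Named list genes are the 5 highest, up to 2 called each way and the 3 lowest, from which a few are printed, and a few close relatives serve as partners in ratios. Transcripts are named at 10% or more of their gene's TPM in either table, and others where a start-site sum rests on them. 1 listed secretory gene is not reported here.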

Additional observations from a re-analysis of the deposited data

How the results depend on the processing

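The Cdkn1a ratio kept its direction and its call under every scaling, quantification and prior count tried, from -1.002 with spike-ins to -1.17 with total counts, with adjusted p-values of the exact binomial test (Benjamini-Hochberg) from 4.28e-106 to 1.49e-76. The 7 other tested genes were uncalled throughout, and their ratios, near zero, changed sign with the scaling, except that Glb1 stayed below zero (-0.20 to -0.03). The calls among all genes, 1922 lower and 1289 higher, depended on the centring. Total counts gave 3448 lower and 694 higher, and spike-ins 980 lower and 2843 higher. Differences of 2-fold or more numbered 203, rising to 2010 with no filter on TPM and falling to 69 at a mean of at least 5 TPM, where more or fewer genes were tested. Mean levels in the second table lay outside 1 SD of the first for Cdkn1b, Cdkn2a, Cdkn2c, Trp53, Lmnb1, Glb1 and Mdm2, by the most for Mdm2, and shares of Mdm2, Cdkn1a and Trp53 transcripts moved as given beside the results. TPM rescaled to nuclear protein-coding genes alone raised all 10 levels, Cdkn1a from 29.2 to 73.9, and FPKM lowered them, Cdkn1a to 23.3. Each library left out leaves the other library's level. No paired analysis was possible because the 2 libraries form 1 group. Depth limits Cdkn2a and Cdkn2b, at 16 counts or fewer in each library. 1 library against 1 other gives no spread between animals.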
